A study of Mus musculus with 6 samples.

Results

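Toll-like receptors are the sensors with which cells detect molecules of microbes and of damaged cells, and 8 of them (*Tlr1* to *Tlr7* and *Tlr9*) are described here with *Myd88* and *Ticam1*, the adaptors that carry their signal. These 10 genes were picked by name from the symbols of a table of 59485 genes, and each had 1 row. The rule is a list of names, drawn up with earlier results of these data known. The values come from sciatic nerves of mice at P4, dissected from 3 animals labelled wild-type and from 3 animals labelled Ht-PA-Cre; Adar1fl/fl;R26R, with 1 RNA-seq library per animal. In the mutant genotype, a human tissue plasminogen promoter drives Cre in neural crest cells, which deletes the floxed alleles of *Adar*, the gene of the RNA-editing enzyme ADAR1, while R26R is a YFP tracer of the cells in which Cre has acted. The study's methods use wild-type for Adar1fl/fl;R26R or Adar1fl/+;R26R animals, without saying which gave these libraries. A sciatic nerve holds Schwann cells, fibroblasts, perineurial cells, endothelial cells, macrophages and blood, not all of which come from the neural crest, and in such bulk tissue fewer cells of a type and less RNA per cell cannot be told apart.

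A Toll-like receptor is a membrane protein whose outer part binds a ligand and whose inner part, the TIR domain, recruits an adaptor with a TIR domain of its own. TLR2, which pairs with TLR1 or TLR6, recognizes bacterial lipoproteins, TLR4 recognizes lipopolysaccharide and TLR5 flagellin, all at the cell surface. TLR3 binds long base-paired RNA, TLR7 binds RNA rich in guanosine and uridine, and TLR9 binds DNA with CpG motifs, all in endosomes. MYD88 serves all of these receptors except TLR3 and leads to NF-κB, whereas TICAM1, also called TRIF, is the adaptor of TLR3 and of endosomal TLR4 and leads to IRF3 and type I interferon. In peripheral nerve, macrophages express most of these receptors, and Schwann cells are known to express some of them, TLR3 and TLR4 included.

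The libraries had 50.9 to 68.7 M reads on genes under the control label and 57 to 78.3 M under the mutant label, and the 10 genes had between 75 and 10224 reads each in a library. Values are normalised read counts, that is, reads on the constitutive regions of a gene divided by the size factor of the library. *Adar* itself stood at 1602, 2066 and 1133 with the control label and at 11768, 9311 and 9773 with the mutant label, here and below in the order of replicates 1, 2 and 3. Its log2 fold change of 2.72 goes against the deletion that the label names. The table holds a single value per gene, in which the deleted exons are not seen apart, so libraries are called control-labelled and mutant-labelled throughout and each direction below rests on those labels. Defining Schwann cell markers were present in all libraries. Of the 6 listed, 4 passed the threshold used below as lower in the mutant-labelled ones, against 10.4% of all tested genes. Erythroid markers summed to 25999 to 35262 in control-labelled and to 2219 to 6986 in mutant-labelled libraries, and skeletal muscle markers to 2648 to 17036 and to 18472 to 157838. Fibroblast markers summed to 1211080 to 1381380 with the control label and to 478182 to 748607 with the mutant label, but most of this sum is *Col1a1*, the 1 of 4 past the threshold at -1.10, while *Dcn* was at 0.00, *Pdgfra* at 0.16 and *Lum* at -0.43. Neuron markers summed to 1807 to 2020 and to 2997 to 3254. Perineurial markers summed to 16302 to 19665 and to 13507 to 15466, with *Itgb4* past the threshold at -1.62, 1 of 3, while *Slc2a1* was at -0.27 and *Cldn1* at 0.54 (adjusted p = 0.00723). Mast cell markers summed to 3328 to 11429 and to 3724 to 4405, with 1 of 4, *Cpa3*, past it at -1.19 (adjusted p = 0.0638). The part of these cells in the values below was not tested.

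Among the 10 genes, *Tlr2*, *Tlr3*, *Tlr4*, *Tlr9* and *Myd88* rose in mutant-labelled libraries. The threshold takes the study's limits, a p of 0.05 or less together with 2-fold or more, and applies them here to the p before adjustment in limma's moderated test of log2(value + 1). None of the 10 fell. Of the 25802 genes tested, 24.2% passed the threshold, 13.9% as higher and 10.4% as lower, against 5 and 0 of the 10 genes here. All 5 passed the threshold with an adjusted p of 0.05 or less as well, which 19.9% of all tested genes did. The median log2 fold change was 1.19 over the 10 genes and 0.03 over all tested genes. In 7 of the 10 genes, every mutant-labelled value lay above every control-labelled value, which was the case in 25.9% of all tested genes, and 49.2% of all tested genes did not overlap in 1 direction or the other. The smallest two-sided p that exact permutation of 3 and 3 libraries allows is 0.1, and each of those 7 genes had it.

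**Figure D1:**
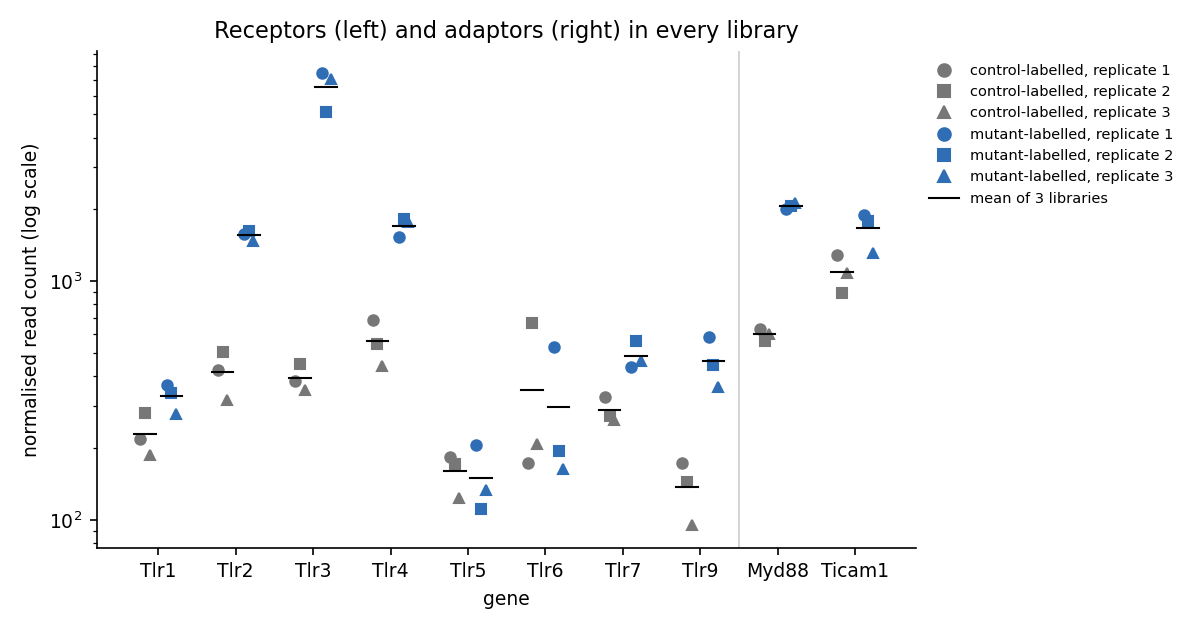
Normalised read count (log axis) of the 8 receptors and 2 adaptors in each library, with gray symbols for control-labelled and blue symbols for mutant-labelled libraries, a symbol shape per replicate number and a line at the mean of 3 libraries. *Tlr3* has the widest gap between the genotypes, from at most 451 to at least 5128, while *Tlr5* and *Tlr6* overlap.

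*Tlr3* (GSMG0038362, mm10 chr8:45395665-45410619, minus strand), the receptor of base-paired RNA, changed most. It stood at 382, 451 and 350 with the control label and at 7437, 5128 and 7069 with the mutant label. The lowest mutant-labelled library thus lay far above the highest control-labelled one. This is a log2 fold change of 4.04 (SE 0.17, 95% interval 3.65 to 4.42, adjusted p = 2.96e-06) and a ratio of means of 16.6. *Tlr3* was at rank 630 of all tested genes by log2 fold change, so 2.44% of them had a larger rise. Leaving out any library kept its log2 fold change between 3.94 and 4.21.

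The promoter sequences were examined for motifs since 5 of the genes moved together. RefSeq (GRCm38.p6, the assembly of mm10) gave windows from 250 bases before to 50 bases after a start site for 8 of the 10 genes, with more than 1 start for *Tlr1* and *Tlr6*, and windows of *Tlr4* and *Tlr7* were not analysed here. Both strands were searched for the interferon-stimulated response element as GAAANNGAA, the STAT site as TTCNNNGAA and the NF-κB site as GGGANNTTC. These are found in 8.56, 8.3 and 3.94% of all 32851 windows. The bases before the start are printed for *Tlr3*, *Tlr2* and *Myd88*, which rose and hold a match, and for the second start of *Tlr6*, which holds matches and did not pass the threshold. Each is read 5′ to 3′ on the minus strand of the gene, with the matched bases in capitals. They lie at chr8:45410381-45410630, chr3:83841609-83841858, chr9:119340019-119340268 and chr5:64959167-64959416, in that order.
Tlr3: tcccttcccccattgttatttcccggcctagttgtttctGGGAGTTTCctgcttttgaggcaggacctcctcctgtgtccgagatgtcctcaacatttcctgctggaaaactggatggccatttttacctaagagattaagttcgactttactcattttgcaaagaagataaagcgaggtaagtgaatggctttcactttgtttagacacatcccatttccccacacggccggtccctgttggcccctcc
Tlr2: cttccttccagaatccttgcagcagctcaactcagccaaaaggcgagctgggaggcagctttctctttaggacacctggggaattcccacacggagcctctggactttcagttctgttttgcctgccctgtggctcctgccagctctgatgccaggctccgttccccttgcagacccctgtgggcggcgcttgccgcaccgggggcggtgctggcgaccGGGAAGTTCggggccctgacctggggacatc
Myd88: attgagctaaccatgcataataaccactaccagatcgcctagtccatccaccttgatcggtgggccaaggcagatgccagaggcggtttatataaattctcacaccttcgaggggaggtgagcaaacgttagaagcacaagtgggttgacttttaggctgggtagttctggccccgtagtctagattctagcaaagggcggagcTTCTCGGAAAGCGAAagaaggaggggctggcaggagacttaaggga
Tlr6 (second start): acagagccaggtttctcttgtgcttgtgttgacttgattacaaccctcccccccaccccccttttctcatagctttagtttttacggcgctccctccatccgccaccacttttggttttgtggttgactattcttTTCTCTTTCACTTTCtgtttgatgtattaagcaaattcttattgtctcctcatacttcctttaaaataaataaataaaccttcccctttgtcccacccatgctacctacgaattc

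The match of *Tlr3* was to the NF-κB letters, GGGAGTTTC, with its first base at -211 from the start. *Tlr2* had GGGAAGTTC at -31. *Myd88* had an interferon-response match, GAAAGCGAA, at -40 that overlaps a STAT match, TTCTCGGAA, at -46, so both are in 1 run of capitals. Its RefSeq start lies 1382 bases inside the interval that the table gives for the gene, the second start of *Tlr6* 930 bases, that of *Tlr3* 239 bases and that of *Tlr2* 159 bases inside. The second start of *Tlr6* had a pair of interferon-response matches on the opposite strand, at -115 and -109, which also overlap each other. *Tlr6* at its first start and *Tlr1* at its second start each had STAT matches only, and no match was found in the windows of *Tlr5*, *Tlr9* and *Ticam1*. A match is a string of letters and does not show that a factor binds there. A site that differs from the searched letters in a single base is missed, so the lack of a match does not show that no site is present.

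Of the adaptors, *Myd88* passed the threshold and *Ticam1* did not, and the difference between them was not tested. *Myd88* (GSMG0041437, mm10 chr9:119335935-119341400, minus strand) stood at 632, 563 and 602 with the control label and at 2003, 2066 and 2137 with the mutant label. These were the most even values of the 10 genes, and the genotypes were well apart. It rose by 1.79 on the log2 scale (SE 0.11, adjusted p = 1.77e-05). *Acaa1a* and *Wdr48* overlap *Myd88* on the opposite strand, and the library was oriented, although the sources used here do not state that the counting used strand. *Acaa1a* ran from 3572 to 4476 with the control label and from 2725 to 3332 with the mutant label, and *Wdr48* from 2205 to 2351 and from 2577 to 2754, so neither had a rise of the size of that of *Myd88*.

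*Ticam1* (GSMG0017691, mm10 chr17:56269317-56276767, minus strand), the adaptor through which TLR3 signals, stood at 1284, 895 and 1089 with the control label and at 1898, 1784 and 1317 with the mutant label. The genotypes did not overlap, but control-labelled replicate 1 and mutant-labelled replicate 3 were close. The log2 fold change was 0.61 (SE 0.18, 95% interval 0.19 to 1.03, adjusted p = 0.0320), below 2-fold and so not past the threshold. Without control-labelled replicate 2, which had the lowest value, the change was 0.48 and the adjusted p 0.111.

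Among the receptors of the cell surface, *Tlr2* and *Tlr4* both rose. *Tlr2* (GSMG0025567, mm10 chr3:83836271-83841767, minus strand), the partner of TLR1 and TLR6 in lipoprotein recognition, stood at 424, 506 and 318 with the control label and at 1571, 1622 and 1479 with the mutant label. All mutant-labelled values were close to each other and well above the controls. The rise was 1.93 on the log2 scale (SE 0.18, adjusted p = 0.000118).

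*Tlr4* (GSMG0026652, mm10 chr4:66827551-66930284, plus strand), the lipopolysaccharide receptor, stood at 688, 548 and 444 with the control label and at 1540, 1832 and 1765 with the mutant label. The genotypes did not overlap. It rose by 1.63 on the log2 scale (SE 0.18, adjusted p = 0.000245). A gene without a symbol lies within *Tlr4* on its strand and had values of at most 18.3.

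The TLR2 partners did not pass the threshold. *Tlr1* (GSMG0030534, mm10 chr5:64924680-64933561, minus strand) stood at 219, 281 and 186.3 with the control label and at 369, 340 and 279 with the mutant label. The highest control-labelled and the lowest mutant-labelled library overlapped by a small margin. Its log2 fold change was 0.53 (SE 0.23, 95% interval 0.02 to 1.05, adjusted p = 0.102), and the adjusted p ran from 0.0413 to 0.264 over the alternatives tried.

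*Tlr6* (GSMG0030535, mm10 chr5:64952030-64960096, minus strand), the neighbor of *Tlr1*, stood at 173, 671 and 209 with the control label and at 530, 195 and 164 with the mutant label. A single library of each genotype, control-labelled replicate 2 and mutant-labelled replicate 1, stood far above the others. These are also the libraries with the most reads on genes, 68.7 and 78.3 M, and the part of depth in this pattern was not tested. Its log2 fold change was -0.17 (SE 0.58, 95% interval -1.50 to 1.16, adjusted p = 0.843), so the interval covers a change of more than 2-fold in both directions. Without control-labelled replicate 2 the change was 0.43, and without mutant-labelled replicate 1 it was -0.69. *Tlr1* and *Tlr6* are near-identical in places: 5.5% of the stretches of 130 bases in *Tlr1* transcripts, and 4.94% of those of *Tlr6*, are found in the other gene, so some of their reads may be split or lost. No such stretch of the other 8 genes was shared with another gene.

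*Tlr5* (GSMG0001180, mm10 chr1:182954786-182976044, plus strand), the flagellin receptor, was among the least abundant. It stood at 183.2, 172 and 124 with the control label and at 206, 111 and 134 with the mutant label. The genotypes overlapped throughout. Its log2 fold change was -0.12 (SE 0.31, 95% interval -0.83 to 0.60, adjusted p = 0.795), and a change of 2-fold either way lies outside this interval. With the libraries scaled to the same total, the sign turned, at 0.043.

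Of the remaining endosomal receptors, *Tlr9* passed the threshold and *Tlr7* did not. *Tlr9* (GSMG0040036, mm10 chr9:106222598-106226876, plus strand), the receptor of CpG DNA, stood at 173, 145 and 95.04 with the control label and at 583, 448 and 360 with the mutant label. Both genotypes spread, without overlap. The rise was 1.76 on the log2 scale (SE 0.29, adjusted p = 0.00208).

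*Tlr7* (GSMG0043023, mm10 chrX:167304926-167330571, minus strand), the receptor of RNA rich in guanosine and uridine, stood at 328, 273 and 262 with the control label and at 436, 563 and 465 with the mutant label. The genotypes did not overlap, and mutant-labelled replicate 2 had the highest value. The log2 fold change was 0.76 (SE 0.18, 95% interval 0.34 to 1.18, adjusted p = 0.0136), below 2-fold. The gene is X-linked, and *Xist*, the RNA of the inactive X chromosome, stood at 7851, 0 and 6503 with the control label and at 0, 9325 and 0 with the mutant label, so the genotypes differ in their mix of sexes. Without mutant-labelled replicate 2 the log2 fold change of *Tlr7* was 0.65, and the part of sex in it was not tested.

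**Figure D2:**
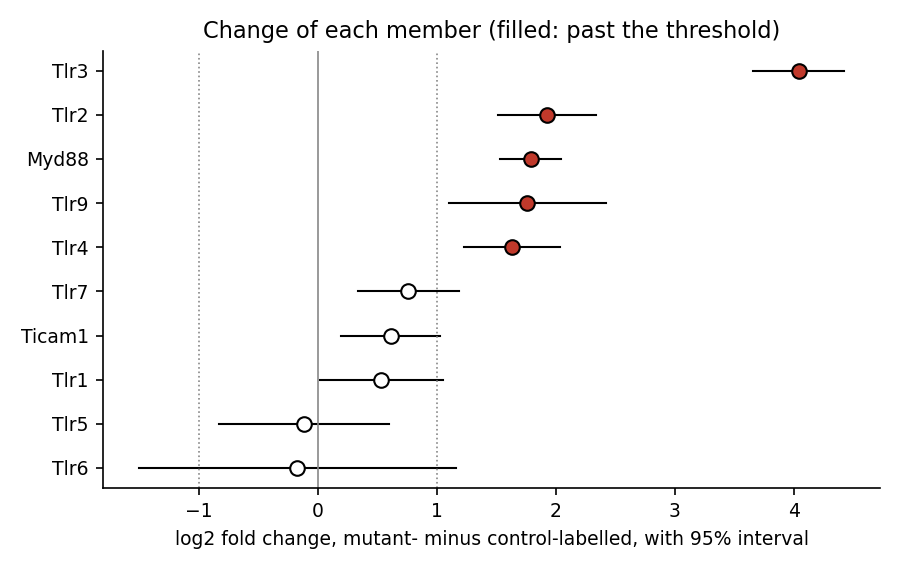
Log2 fold change (mutant-labelled minus control-labelled, 3 libraries each) of the 10 genes on the log2(value + 1) scale, with limma's 95% interval as a line, dotted lines at a 2-fold change and filled points for genes past the threshold. The 5 filled genes lie between 1.63 and 4.04, with *Tlr3* apart from the rest, and the intervals of *Tlr5* and *Tlr6* span 0.

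The reads on the 8 receptors were shared out differently in each genotype. Other receptors are not among the 8, such as *Tlr13*, with a mean of 360 with the control label and 628 with the mutant label. The 8 receptors summed to a normalised read count of 2535 ± 530 (SD, n = 3) with the control label and of 11542 ± 1226 with the mutant label. *Tlr3* took 15.7% ± 1.60 of this sum with the control label and 56.4% ± 5.51 with the mutant label. The share of *Tlr3* ran from 14.8 to 17.6% in the former and from 50.1 to 60.3% in the latter. Without *Tlr3*, the sum was 2141 ± 480 and 4997 ± 312. *Tlr4*, with the largest mean share in control-labelled libraries at 22.4% ± 4.396, took 15.0% ± 2.87 in mutant-labelled ones, and *Tlr2* took 16.4% ± 0.332 and 13.6% ± 1.93. *Tlr5* took 6.34% ± 0.746 and 1.28% ± 0.297, although its own count had no detectable difference. These shares are of reads, in which a long transcript counts for more than a short one, and a share falls where another gene of the sum rises.

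**Figure D3:**
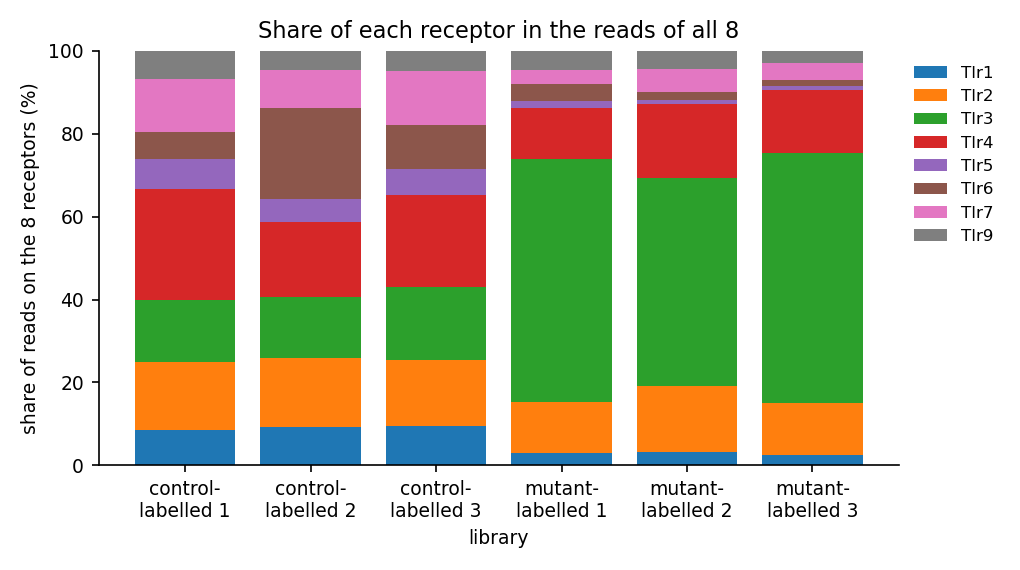
Share of each of the 8 receptors in their summed normalised read count, in percent, for each of the 3 control-labelled and 3 mutant-labelled libraries. *Tlr3* takes 14.8 to 17.6% in control-labelled and 50.1 to 60.3% in mutant-labelled libraries.

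To compare levels between genes, normalised read counts were divided by the exonic length of each gene in GENCODE, which may differ from the constitutive regions that the authors counted. In control-labelled libraries, *Ticam1* had the highest level, 364 ± 65.0 per kb of exon, followed by *Myd88* with 233 ± 13.4 per kb, and these levels did not overlap. *Tlr2* came next with 138 per kb, and *Tlr4*, *Tlr6*, *Tlr3*, *Tlr7* and *Tlr1* followed between 100.8 and 68.3 per kb, each overlapping the gene before it in the order. The place of *Tlr6* rests on control-labelled replicate 2, with 180 per kb against 46.5 and 56.1 per kb in replicates 1 and 3. *Tlr9* with 39.6 and *Tlr5* with 33.4 per kb had the lowest levels and overlapped each other. In mutant-labelled libraries, *Tlr3* came first with 1257 ± 238 per kb, above *Myd88* with 803 ± 26.2 per kb, without overlap. *Ticam1* with 557 and *Tlr2* with 517 per kb overlapped, *Tlr4* came next with 308 per kb, and *Tlr9*, *Tlr7*, *Tlr1* and *Tlr6* followed between 133 and 79.5 per kb, again overlapping. *Tlr5* was last, with 31.3 per kb.

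The level of *Tlr3* per kb was 0.171 to 0.289 times that of its adaptor *Ticam1* in control-labelled libraries and 1.65 to 3.08 times that of *Ticam1* in mutant-labelled ones. In the same way, the level of *Myd88* was 0.572 to 0.731 times that of *Ticam1* and then 1.23 to 1.88 times. So both ratios lay on the other side of 1 in every mutant-labelled library. With the longest coding transcript as the length, *Ticam1* and *Myd88* remained the first and second genes in control-labelled libraries and *Tlr3* and *Myd88* in mutant-labelled ones, while *Tlr9* (39.6 per kb) then came last in place of *Tlr5* (41.9 per kb) in control-labelled ones.

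The genes whose log2(value + 1) followed that of *Tlr3*, which has the highest mean value of the 10, most closely over the 6 libraries were *Cdyl* (Pearson r = 0.9996), *Ifit2* (0.9995) and *Rsad2* (0.9994). *Ifit2* and *Rsad2* are interferon-stimulated genes, and *Cdyl* encodes a chromatin protein. Their log2 fold changes were 1.02, 2.92 and 7.54. The correlation is a description over 6 points that share the same gap between genotypes, with any gene that differs evenly between them correlating in the same way.

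The wider pathway was followed with 84 other genes listed by role, of which 81 were abundant enough to test. In mutant-labelled libraries 29 of the 81 rose and 5 fell, against 13.9% and 10.4% of all tested genes. Of the 81 genes, 31 passed the threshold with an adjusted p of 0.05 or less as well, which 19.9% of all tested genes did. The targets gave 13 of the 29 rises and the inhibitors 5. The median log2 fold change was 0.70.

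None of the 3 other receptors tested passed the threshold, against 24.2% of all tested genes. *Tlr13*, a mouse receptor of bacterial ribosomal RNA, was the most abundant, at 353, 427 and 299 with the control label and 639, 596 and 648 with the mutant label, a log2 fold change of 0.82 (adjusted p = 0.00785). *Tlr8* had a log2 fold change of -0.01 and *Tlr12* one of 0.74 (adjusted p = 0.142).

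Of the 6 co-receptors and ligand carriers, 2 rose and 1 fell, against 13.9% and 10.4% of all tested genes. *Cd180*, a relative of TLR4 in B cells and macrophages, rose by 1.95 on the log2 scale (adjusted p = 0.000296), and *Lbp*, which binds lipopolysaccharide in serum, by 1.85 (adjusted p = 0.000802). *Cd14*, the co-receptor that hands lipopolysaccharide to TLR4, fell from 265, 173 and 189 to 68.4, 56.9 and 76.2, a log2 fold change of -1.61 (adjusted p = 0.00364). *Cd14* thus moved against *Tlr4* itself. *Cd36*, a scavenger receptor that works with TLR2, had a log2 fold change of -0.07.

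Of 10 genes that deliver, cleave or fold the receptors or handle their ligands, 1 rose, against 13.9% of all tested genes. It was *Ctss*, the endosomal protease cathepsin S, with a log2 fold change of 1.32 (adjusted p = 8.26e-05). The values of 9 of the 10 did not overlap between the genotypes, against 49.2% of all tested genes. Among those short of 2-fold were the protease gene *Ctsl* at 0.81 (adjusted p = 0.00248), *Unc93b1*, which brings the receptors to endosomes, at 0.57 (adjusted p = 0.0104), and the nuclease gene *Pld3* at -0.70 (adjusted p = 0.00161). The chaperone gene *Hsp90b1*, the most abundant of the list, had a log2 fold change of -0.26 (adjusted p = 0.0896). Of the 4 other adaptors, none rose and 2 fell, against 13.9% and 10.4% of all tested genes. *Sarm1*, a TIR protein of axons, had a log2 fold change of -1.20 (adjusted p = 0.0195), and *Ticam2*, the bridge between TLR4 and TICAM1, one of -1.06, with an adjusted p of 0.0683 and 1 gene that overlaps it on its strand. *Pik3ap1* had a log2 fold change of 0.97 (adjusted p = 0.0194), short of 2-fold.

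Among 20 kinases and ubiquitin ligases, 3 rose and 2 fell, which is near the shares over all tested genes, 13.9 and 10.4%. *Map3k8*, a kinase of the ERK branch, had a log2 fold change of 1.57 (adjusted p = 0.00839). The Pellino ligases *Peli2* and *Peli3* had log2 fold changes of -1.77 (adjusted p = 0.000266) and -1.10 (adjusted p = 0.0249), and 5 genes overlap *Peli2* on its strand. The abundant *Tab2*, an adaptor of the kinase TAK1, was at 0.50. Of the 5 transcription factors, *Irf7* and *Irf5* rose, against 13.9% of all tested genes. *Irf7*, which TLR7 and TLR9 use to induce type I interferon, stood at 492, 1947 and 204 with the control label and at 99343, 70931 and 75697 with the mutant label, a log2 fold change of 7.12 (adjusted p = 0.000115). *Irf5*, which acts after MYD88, had a log2 fold change of 2.73 (adjusted p = 2.36e-05), and *Rela*, a subunit of NF-κB, one of 0.45.

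Of 11 inhibitors, 5 rose and none fell, against 13.9% and 10.4% of all tested genes. The largest rises were those of *Socs1* at 2.50 (adjusted p = 0.000138), *Nfkbia* at 2.28 (adjusted p = 3.16e-05) and *Tnfaip3* at 2.01 on the log2 scale (adjusted p = 4.24e-05). *Nfkbia* encodes the NF-κB inhibitor IκBα and *Tnfaip3* the ubiquitin-editing enzyme A20. The abundant *Tmed7* had a log2 fold change of -0.32. Of the 6 interleukin receptors of the family that signals through MYD88, 3 passed the threshold as higher, against 13.9% of all tested genes. *Il1r1* and *Il1rl2* rose by 1.01 (adjusted p = 0.0276) and 1.26 (adjusted p = 0.00114). *Il18r1*, with values of at most 46.3 in any library, passed at 2.91 with an adjusted p of 0.0546. *Il1rap*, at 0.9985 on the log2 scale, was just under 2-fold. A further gene overlaps *Il1r1* on its strand.

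Of the 16 target cytokines and enzymes tested, 13 rose and none fell, against 13.9% and 10.4% of all tested genes. Of these 13, 12 also had a small adjusted p, of 0.05 or less. *Ccl5*, a chemokine, went from 11.1, 34.0 and 10.1 to 25406, 19508 and 25500, a log2 fold change of 10.44 (adjusted p = 2.37e-06). *Ifnb1*, the interferon-β gene and a target of the TICAM1 branch, had no reads in the control-labelled libraries and values of 466, 408 and 507 in mutant-labelled ones. It was at least 138.55-fold higher, taking 3 reads per control-labelled library as the floor. *Il6* stood at 9.99, 0 and 0 with the control label and at 508, 479 and 412 with the mutant label (log2 fold change 7.71, adjusted p = 0.000381). *Nos2*, the inducible nitric oxide synthase, was the exception among the abundant targets, with a log2 fold change of -0.08 (adjusted p = 0.895). Many of these targets also respond to other sensors and to interferon, and which receptor acts on them cannot be read from expression.

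**Figure D4:**
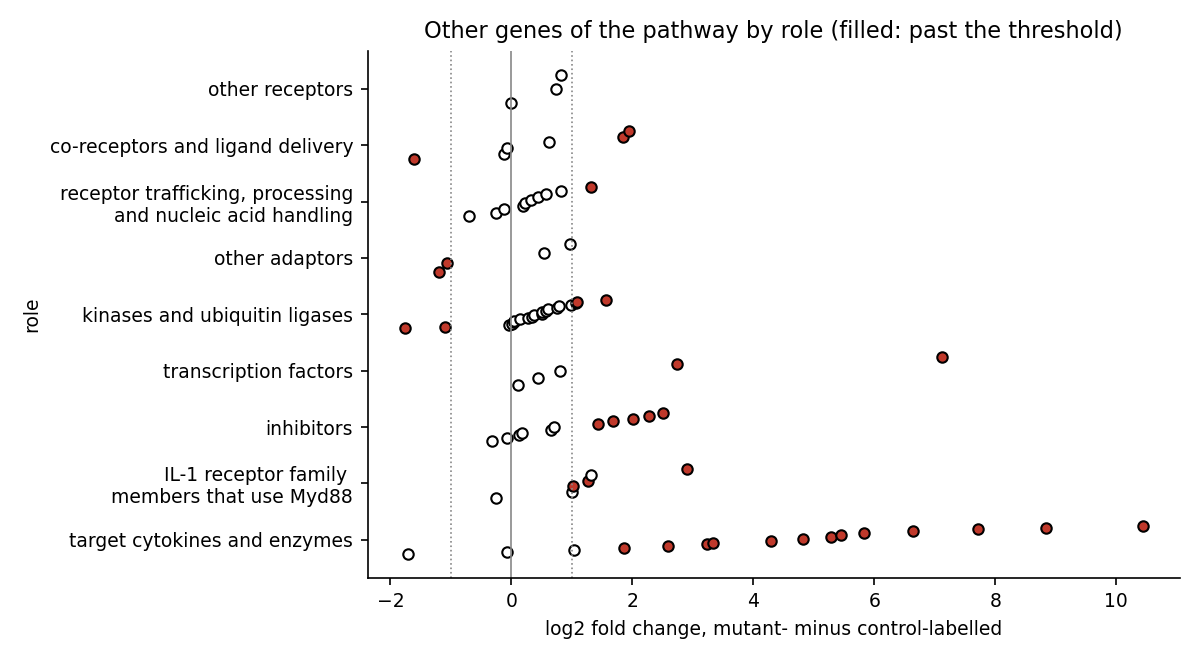
Log2 fold change (mutant-labelled minus control-labelled) of the 81 tested pathway genes outside the 10, 1 point per gene in rows by role, with dotted lines at a 2-fold change and filled points past the threshold. The targets reach 10.44 (*Ccl5*), while most of the kinases and of the trafficking genes lie within a 2-fold change.

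Macrophages carry most of these receptors, so their markers are given beside the members. The 13 macrophage markers summed to 22623 to 28650 in control-labelled and to 23087 to 26968 in mutant-labelled libraries. These sums overlapped, although the values of 9 of the 13 markers did not, against 49.2% of all tested genes. Of the 13 markers, *Fcgr1* and *Aif1* rose, by 1.58 and 1.04 on the log2 scale, and *Mrc1*, *Cx3cr1*, *Lyz2* and *Csf1r* fell, with log2 fold changes of -2.27, -1.83, -1.30 and -1.25. The other 7 did not pass, with *Cd68* at -0.22, *Adgre1* at -0.19, *Mertk* at 0.05, *C1qb* at 0.20, *C1qc* at 0.50 (adjusted p = 0.0223), *Itgam* at 0.56 (adjusted p = 0.0306) and *C1qa* at 0.56 (adjusted p = 0.00739). None of the 13 was at 0 in any genotype, and the part of the macrophages in the values of the receptors was not tested.

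Other blood cells also carry receptors. Pan-leukocyte markers summed to 3852 to 4261 in control-labelled and to 3746 to 5269 in mutant-labelled libraries, with *Ptprc* (CD45) past the threshold at 1.33, 1 of 4. Dendritic cell markers summed to 478 to 656 and to 646 to 755, and most of this sum is *Zbtb46*, at -0.06 (adjusted p = 0.804). *Itgax* was higher by 2.63 and *Siglech* was at -2.76 (adjusted p = 0.0944), while *Flt3*, *Xcr1* and *Clec9a* were too low to test. B cell markers summed to 113 to 143 and to 68.2 to 95.3, and none of the 4 passed. Their values were low, at most 91.2 in any library, so a change in them could be missed. Neutrophil markers summed to 15.1 to 156 and to 67.3 to 429, without a call among the 4 tested of 6. T and NK cell markers summed to 106 to 217 and to 350 to 484, and 4 of the 6 tested rose, against 13.9% of all tested genes. These were *Ncr1*, *Cd8a*, *Klrb1c* and *Cd4*, the last with an adjusted p of 0.0542 and overlapping genotypes. *Ncr1* and *Cd8a* had no reads in control-labelled libraries, and *Cd8a* had values of at most 20.4 in mutant-labelled ones. *Cd3e* and *Cd3g* did not pass. The part of these cells in the values of the 10 genes was not tested.

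**Figure D5:**
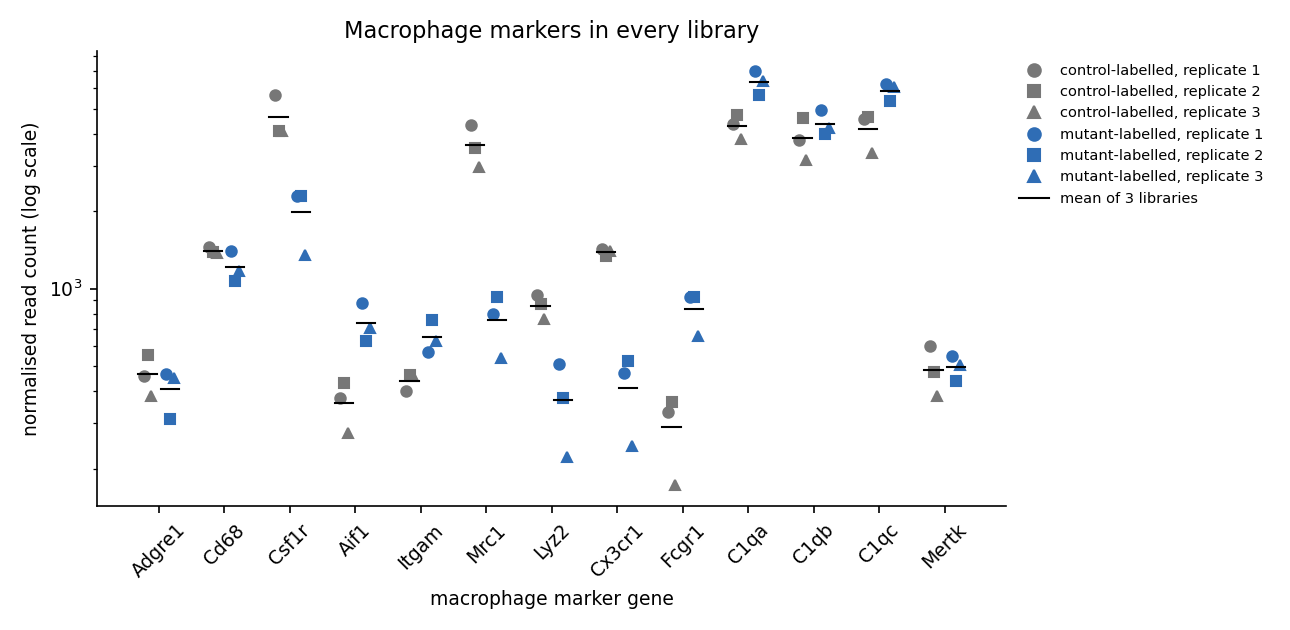
Normalised read count (log axis) of the 13 macrophage markers in each library, with gray symbols for control-labelled and blue symbols for mutant-labelled libraries, a shape per replicate number and a line at the mean of 3 libraries. *Fcgr1* and *Aif1* lie higher and *Csf1r*, *Mrc1*, *Lyz2* and *Cx3cr1* lower in mutant-labelled libraries, without a common direction.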

How the data were processed

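RNA-seq was compared between 3 control-labelled and 3 mutant-labelled libraries of P4 sciatic nerve. The authors made oriented libraries from poly-A RNA, mapped the reads to mm10 with STAR (2.4.0 in the submitters' processing notes), counted reads on constitutive regions of FAST DB genes and divided them by DESeq2 size factors. This deposited signal is therefore a scaled count. Each value was a whole number of reads times a constant of its library (tolerance 0.01), and these reads went into edgeR and DESeq2.

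log2(value + 1) was fitted with limma (lmFit, eBayes with trend) for the 25802 genes with a mean of at least 10 in a genotype, and p-values were adjusted by Benjamini-Hochberg over all of them. The scale understates changes of low genes. Alternatives covered the pseudocount, filters, scaling, tools, a replicate block and each library left out.

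The 10 genes, the pathway and marker lists and the naming rule were chosen with earlier results of these data known. Named were the 10 genes, the 3 largest changes past the threshold and the most abundant gene not past it in each pathway list, *Adar*, and the 3 genes most like *Tlr3*. Other genes, such as markers, *Xist*, *Tlr8*, *Tlr12*, *Ctsl*, *Unc93b1*, *Pld3* and genes overlapping a member, were named after their values were seen. Levels per kb use GENCODE M21 lengths. R 4.3.3, limma 3.58.1, edgeR 4.0.16 and DESeq2 1.42.0 were used, with Python 3.11.15 for sequences and plots.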

Additional observations from a re-analysis of the deposited data

How the results depend on the processing

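In 12 other settings, and in 6 fits that each left out a library, 5 of the 10 receptors and adaptors passed the threshold each time. The pathway count ran from 31 to 35 over the settings and from 31 to 34 over the left-out libraries, against 34. Over all tested genes the count ran from 4706 to 6892 and from 5743 to 6334, against 6251. Of 170 values of single receptors and adaptors, 165 kept their direction and their side of the threshold and 5 reversed, all of them of genes that did not pass. The log2 fold change of *Tlr5* was 0.043 with libraries scaled to the same total and 0.073 without mutant-labelled replicate 2, and ran from -0.37 to 0.073 over the left-out libraries. That of *Tlr6* ran from -0.69 to 0.43 over them and changed to 0.43 without control-labelled replicate 2, to 0.03 without mutant-labelled replicate 2 and to 0.15 without mutant-labelled replicate 3. The cause was not tested. Scaling to the same total moved the median log2 fold change of all genes from 0.03 to 0.19, and relative to that median *Tlr5* still lay below. The adjusted p of *Ticam1* ran from 0.00771 to 0.111 over the alternatives and that of *Tlr7* from 0.00245 to 0.0486.

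The replicate numbers stand for different animals and did not pair the samples, with correlations of -0.06, -0.06 and 0.009 between same-numbered libraries. With the replicate block, 5 of the 10 genes, 35 pathway genes and 6149 genes in all passed the threshold. *Tlr9*, with 75 reads in its lowest library, and *Tlr5*, with 98, rest on few reads, and 3 animals per genotype limit all tests.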
